A study of Saccharomyces cerevisiae with 12 samples.

Results

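Budding yeast takes up glucose through a family of membrane carriers, the hexose transporters, whose genes are switched by the amount of sugar outside the cell. The 10 genes described here, of 5594 measured, were chosen by their names: the carriers HXT1 to HXT7, the glucose sensors SNF3 and RGT2, and MTH1. Each gene was read by 1 probe, and all 10 had a value on every array. The set was also selected on the strain ratios of these same arrays, which were known when it was put together. Those ratios are therefore given as a description, and nothing about the set is inferred from them.

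As background, HXT1 encodes a low-affinity carrier induced by abundant glucose, and HXT3 a low-affinity carrier induced by glucose at low and high levels. HXT2, HXT4, HXT6 and HXT7 encode carriers of higher affinity that are induced by scarce glucose and repressed when glucose is plentiful, and HXT5 is tied to slow growth and stress. Snf3 and Rgt2 resemble the carriers but act as receptors in the cell membrane, Snf3 for low and Rgt2 for high glucose. Their signal leads to the destruction of Mth1 and its relative Std1, which hold the repressor Rgt1 on the HXT promoters, and MTH1 itself is repressed by glucose.

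The arrays were 2-colour Agilent arrays, hybridised with RNA of the deletion strain ∆zta1 in one dye and of the wild type FY834α in the other. The deleted gene, ZTA1 (YBR046C), encodes zeta-crystallin, which reduces quinones and is named in the title of the series as a binder of AU-rich RNA elements. Both strains grew in rich YPD medium at 30 °C to exponential phase. In 3 pairs of cultures both strains were left untreated, and in 3 pairs both received hydrogen peroxide (H2O2), at 10 mM for 30 min. Whether treated and untreated pairs came from shared cultures is not stated. Every pair was measured on 2 arrays with the dyes exchanged, 12 arrays in all. How ZTA1 was removed, and whether the strain was a single clone, is not given in the sources used here. No array compared treated with untreated cells, so the response of these genes to peroxide itself was not measured. A ratio does not give a transcript's level, so levels could not be set against each other between genes, and markers of mating type could not be checked as levels.

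Values are log2 ratios, the mean of both arrays of a pair, with the SD over pairs. A value of 1 stands for a 2-fold higher signal in ∆zta1. ZTA1 was far below 0 in all 6 pairs, from -5.84 to -4.32. So were YCL021W-A, from -4.68 to -3.00, and COS12, from -1.60 to -1.07. Whether the strains differ in their genomes outside ZTA1 was not tested. Untreated replicate 2 stood apart from the rest. The SD of its ratios over all genes was 0.161, against 0.111 to 0.127 in the other 5 pairs, and its ZTA1 ratio was the one closest to 0. In untreated replicate 2, 74 genes (1.32%) were below -0.5, none of them from the set. The other 5 pairs had 4 to 14 such genes each. Medians over all genes lay between -0.0034 and 0.0023 in the 6 pairs. For genes of the set, untreated mean ratios, differences between treatments, the order by spread and the correlations are given with and without untreated replicate 2.

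The carriers of higher affinity and MTH1 were higher in ∆zta1 in that pair and lower or near 0 in the others. HXT4 (YHR092C) had log2 ratios of -0.46, 1.24 and -0.13 in untreated replicates 1 to 3, and of -0.12, -0.30 and -0.16 in the H2O2 pairs. It was 2.36-fold higher in untreated replicate 2 and below 0 in the other 5 pairs. The treatments therefore overlapped, the untreated pairs lying on both sides of the H2O2 pairs.

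HXT7 (YDR342C), whose product and that of HXT6 are close copies, had -0.66, 1.04 and -0.17 in the untreated pairs. Under H2O2 its ratios were -0.14, -0.47 and -0.61, all below 0. The signal in untreated replicate 2 was 2.06-fold that of wild type. HXT6 (YDR343C) had -0.60, 0.90 and -0.14 in the untreated pairs and -0.077, -0.39 and -0.54 under H2O2. Its order over the pairs was that of HXT7, with the highest ratio in untreated replicate 2 and the lowest in untreated replicate 1.

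HXT2 (YMR011W) had -0.42, 0.66 and -0.035 in the untreated pairs and -0.29, -0.083 and 0.075 under H2O2. It was above 0 in untreated replicate 2 and, by a small margin, in H2O2 replicate 3. MTH1 (YDR277C), the corepressor, had -0.32, 0.99 and -0.14 in the untreated pairs and -0.034, -0.27 and -0.036 under H2O2. Like HXT4, HXT6 and HXT7 it was above 0 in untreated replicate 2 and below 0 in each of the other 5 pairs. This pattern was shared by 4 of the 10 genes, and by 219 of all 5594 genes (3.91%).

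In untreated replicate 2 these genes were among the highest ratios on the arrays. Ranked from the highest of 5594 genes, HXT4 was at place 2, HXT7 at 3, MTH1 at 5, HXT6 at 6 and HXT2 at 10. A log2 ratio above 0.5 was reached by 16 genes in that pair (0.286%), 5 of them from the set. The gene at place 1 was FMP23, which lies beside ZTA1. In untreated replicate 1 the direction was the opposite: 10 genes (0.179%) were below -0.5, and HXT7 and HXT6 were 2 of them. Under H2O2, 14 genes (0.25%) were below -0.5 in replicate 3, HXT7 and HXT6 again among them.

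The low-affinity carriers had smaller ratios, and their directions differed. HXT1 (YHR094C) had -0.0043, -0.32 and 0.013 in the untreated pairs and -0.23, 0.078 and -0.057 under H2O2. Its lowest ratio was the one in untreated replicate 2, where HXT4 had its highest. HXT3 (YDR345C) had 0.016, 0.30 and -0.013 in the untreated pairs and -0.0053, -0.13 and 0.0043 under H2O2. It was at place 42 from the highest in untreated replicate 2 and within 0.13 of 0 elsewhere. HXT5 (YHR096C) stayed between -0.11 and 0.087 in all 6 pairs.

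The sensors had small ratios. SNF3 (YDL194W) had -0.0053, 0.32 and -0.018 in the untreated pairs, and -0.037, -0.055 and 0.062 under H2O2. Its single value away from 0 was again in untreated replicate 2, at place 40 from the highest. RGT2 (YDL138W) had -0.050, -0.076 and 0.021 in the untreated pairs and -0.037, 0.026 and 0.059 under H2O2. Of the 10 genes, 8 had their highest ratio of the 6 pairs in untreated replicate 2, against 22.9% of all genes, and HXT1 and RGT2 had their lowest there, as did 24.2% of all genes.

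**Figure D1:**
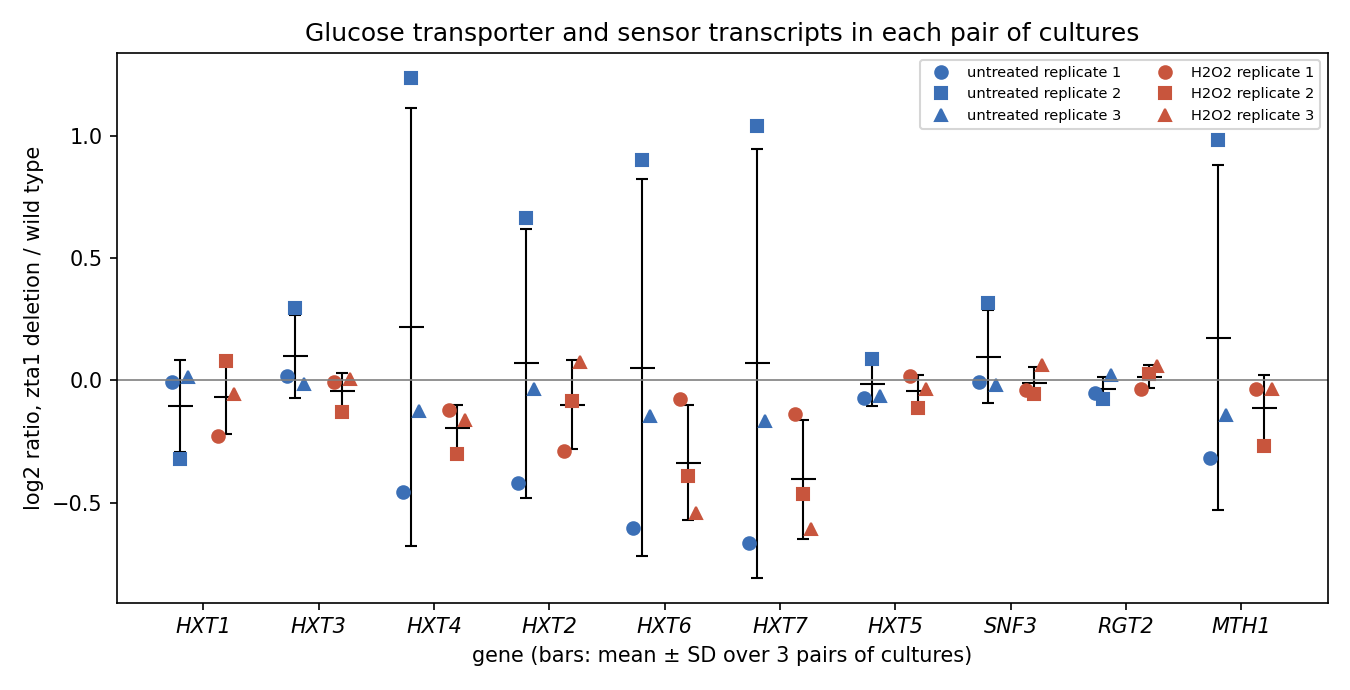
Log2 ratio of ∆zta1 to wild type (vertical axis) for the 10 genes (horizontal axis), with 1 point per pair of cultures, untreated in blue and H2O2 in red, and bars giving the mean ± SD over 3 pairs. The squares of untreated replicate 2 stand at 0.66 to 1.24 for HXT2, HXT4, HXT6, HXT7 and MTH1, above all other pairs of those genes, and at -0.32 for HXT1.

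The comparison in untreated cells asked which transcripts differ between ∆zta1 and wild type when no peroxide is added. The mean ratios of the set were small against their spread. HXT4 had the highest mean, 0.22 ± 0.90 (SD, n = 3 pairs), followed by MTH1 at 0.18 ± 0.71, HXT3 at 0.099 ± 0.17 and SNF3 at 0.097 ± 0.19. HXT7 stood at 0.071 ± 0.88, HXT2 at 0.070 ± 0.55 and HXT6 at 0.053 ± 0.77. HXT5 (-0.016 ± 0.089), RGT2 (-0.035 ± 0.050) and HXT1 (-0.10 ± 0.19) were below 0. Neighbours in this order differed by less than the larger of their SDs.

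Without untreated replicate 2 the direction turned for 7 of these genes. The mean of the remaining pairs was -0.42 for HXT7, -0.37 for HXT6, -0.29 for HXT4, -0.23 for MTH1, -0.23 for HXT2 and -0.012 for SNF3. HXT1 turned from -0.10 to 0.0044, and HXT3 came to 0.0017. The median over the set was 0.070 with all 3 pairs, and -0.15 without untreated replicate 2, while the median over all genes was 0.00052 and -0.0011.

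In limma's test over all 5594 genes, none of the 10 had an adjusted p under 0.05 after Benjamini-Hochberg correction, while 11 genes did (0.197%). At an unadjusted p under 0.05 the counts were 0 of the 10 and 204 genes (3.65%). None of the 10 genes had the same sign in all 3 untreated pairs, as 21.5% of all genes had. With a spread of this size the mean of 3 pairs says little about HXT4, HXT6, HXT7, HXT2 and MTH1. By their SD over all 6 pairs, HXT7 was at place 6 of 5594, HXT4 at 7, HXT6 at 10, MTH1 at 16 and HXT2 at 26. Without untreated replicate 2 the places were 14 for HXT7, 117 for HXT4, 17 for HXT6, 175 for MTH1 and 35 for HXT2.

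Under H2O2, where the comparison asked the same of peroxide-treated cells, the ratios of HXT7, HXT6, HXT4 and MTH1 were below 0 in all 3 pairs. Such a run of 3 negative values was seen in 885 genes (15.8%), so 4 of 10 are to be read beside that share. HXT7 had the lowest mean, -0.40 ± 0.24 (SD, n = 3 pairs), then HXT6 at -0.34 ± 0.24, HXT4 at -0.20 ± 0.094 and MTH1 at -0.11 ± 0.14. HXT2 (-0.099 ± 0.18), HXT1 (-0.068 ± 0.15), HXT3 (-0.043 ± 0.073), HXT5 (-0.042 ± 0.066) and SNF3 (-0.010 ± 0.063) followed, and RGT2 alone was above 0, at 0.016 ± 0.049. Neighbours in this order again differed by less than the larger of their SDs.

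None of the 10 passed in limma's test under H2O2, where 12 of all genes did (0.215%). The counts at an unadjusted p under 0.05 were 0 of the 10 and 464 genes (8.29%). For the mean of both treatments none of the 10 passed either, beside 16 of all genes (0.286%), and at an unadjusted p under 0.05 the counts were 0 and 529 (9.46%). The median over the set was -0.084 under H2O2, against -0.0023 over all genes.

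The difference between the treatments, H2O2 minus untreated, was lower than 0 for 8 of the 10 genes, as for 51.4% of all genes. It was -0.47 ± 0.36 (limma SE) for HXT7, -0.41 ± 0.36 for HXT4, -0.39 ± 0.32 for HXT6, -0.29 ± 0.29 for MTH1 and -0.17 ± 0.23 for HXT2. For the other genes it lay between -0.14 (HXT3) and 0.051 (RGT2). No gene of the whole array passed in limma's test of this difference (0%), and at an unadjusted p under 0.05 the counts were 0 of the 10 and 71 genes (1.27%). Without untreated replicate 2, 3 genes passed, none of them from the set. The difference was then below 0 for 2 of the 10 genes, HXT1 (-0.073) and HXT3 (-0.045), as for 50.8% of all genes. It turned to 0.13 for HXT2, 0.12 for MTH1, 0.096 for HXT4, 0.037 for HXT6 and 0.011 for HXT7.

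The large ratios were seen in both dye orientations. In untreated replicate 2 HXT4 read 1.23 where Cy5 labelled ∆zta1 and 1.25 where Cy3 did, HXT7 read 1.04 and 1.05, and MTH1 read 0.99 and 0.98. The sign of HXT7 was the same on both arrays in all 6 pairs. In the other pairs the readings were further apart, with HXT4 in H2O2 replicate 2 at -0.49 in Cy5 and -0.11 in Cy3.

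RGT2 showed the reverse case. It was below 0 on all 6 arrays with ∆zta1 in Cy5 (mean -0.16 ± 0.071, SD) and above 0 on all 6 with ∆zta1 in Cy3 (mean 0.14 ± 0.049). The gap between the orientations ranged from -0.37 to -0.19 over the pairs, and no pair agreed in sign. With the Cy5 arrays alone RGT2 passed in limma's test for untreated cells as lower, and with the Cy3 arrays alone it passed under H2O2 as higher, so its direction flipped with the dye. These single-dye tests called 906 genes in all (16.2%) in untreated cells with the Cy5 arrays and 420 (7.51%) under H2O2 with the Cy3 arrays. For the mean of both treatments RGT2 and HXT1 passed as lower on the Cy5 arrays alone, beside 2063 of all genes (36.9%), and RGT2 as higher on the Cy3 arrays alone, beside 1477 (26.4%). A lower reading in Cy5 than in Cy3 in all 6 pairs was also seen for HXT4 (by 0.22 on average), HXT6 (0.17), HXT1 (0.16) and HXT7 (0.14). The share of all genes with such a one-sided gap was not counted, so it is not read as particular to these genes. Over all genes, 1/2 of the gap had an SD of 0.10 to 0.13 in the 6 pairs.

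**Figure D2:**
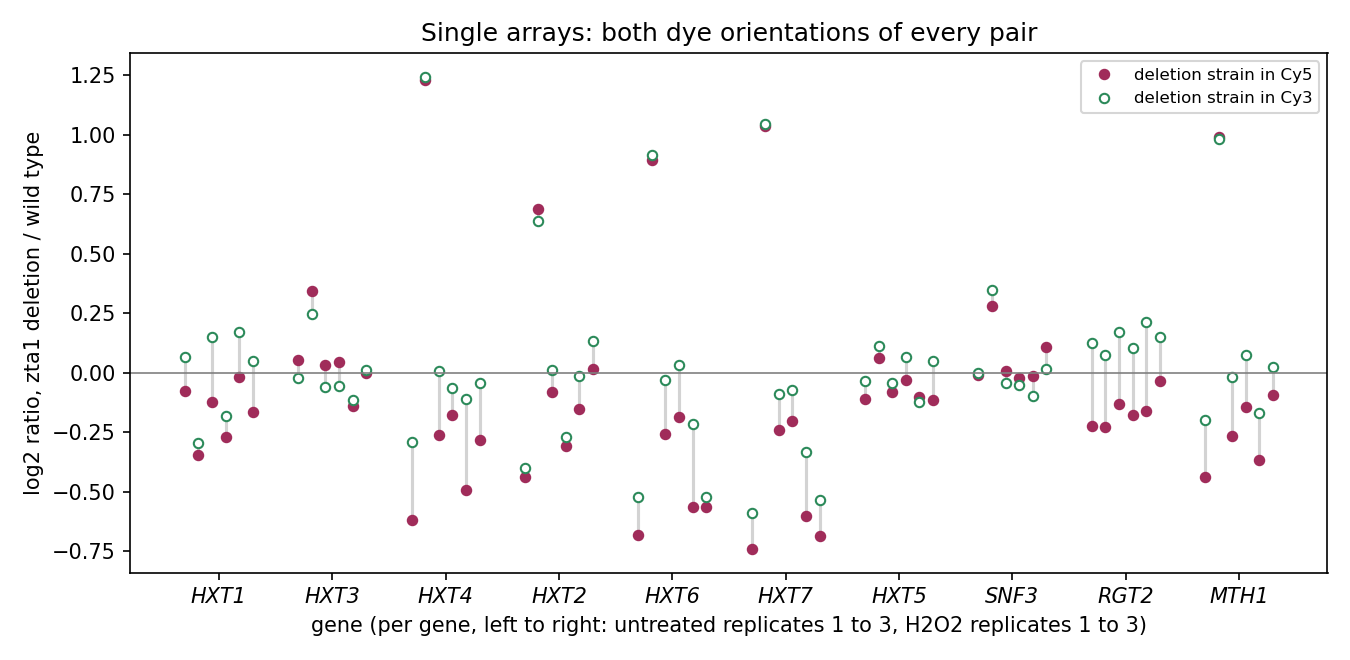
Log2 ratio of ∆zta1 to wild type (vertical axis) on each of the 12 arrays for the 10 genes (horizontal axis), with grey lines joining the arrays of a pair, ∆zta1 labelled with Cy5 (filled) or Cy3 (open). Both orientations coincide at 1.23 and 1.25 for HXT4 in untreated replicate 2, while for RGT2 every filled point is below 0 and every open point above 0.

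HXT6 and HXT7 had different probes and RefSeq accessions but close readings. They differed by 0.021 to 0.077 in 5 pairs and by 0.14 in untreated replicate 2, HXT7 having the larger ratio in size each time. Whether either probe reads the transcript of its own gene alone was not tested, and the 2 genes are best taken as 1 measurement. The counts of genes of the set given here hold both. In RefSeq's gene order (assembly R64) HXT7 and HXT6 are adjacent, with YDR344C, not analysed here, between HXT6 and HXT3. HXT4, AHT1 (not analysed here), HXT1 and HXT5 follow each other on another chromosome. The 10 measured genes directly beside a gene of the set, outside it, had ratios between -0.25 and 0.14 over all 6 pairs, and none of them exceeded 0.5.

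The genes most like HXT7 and HXT4, which had the widest range over the 6 pairs of cultures among the 10, were sought over all genes. Among the 37 genes outside the set with at least 50% of the SD of HXT7, the highest Pearson correlations over the 6 pair ratios belonged to HXK1 (r = 0.99, Spearman rho = 0.94), TMA10 (0.99 and 0.94), GPH1 (0.96 and 1.00), GSY1 (0.86 and 0.83) and FIG1 (0.85 and 0.31). HXK1 encodes hexokinase 1, GPH1 glycogen phosphorylase, GSY1 a glycogen synthase, TMA10 a ribosome-associated protein and FIG1 a membrane protein of mating. These genes were picked for their likeness, and the points share the 6 pairs of cultures, so no test is given. Without the pairs farthest from the median of HXT7, untreated replicates 1 and 2, r was 0.96 for HXK1, 0.98 for TMA10, 0.96 for GPH1 and 0.98 for GSY1 over 4 pairs, but -0.75 for FIG1. Without untreated replicate 2 alone the values were 0.94 for HXK1, 0.98 for TMA10, 0.97 for GPH1, 0.85 for GSY1 and -0.48 for FIG1.

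HXK1 had ratios of -0.65, 0.82 and -0.23 in the untreated pairs and of -0.16, -0.46 and -0.82 under H2O2. It was at place 8 from the highest in untreated replicate 2 and below 0 in the other pairs, as was HXT7. For HXT4 the most similar genes of 39 were FIG1 (r = 0.95), PRM6, a potassium transporter induced by pheromone (0.95), TMA10 (0.93), HXK1 (0.93) and GPH1 (0.88). Spearman's rho with HXT4 was 0.49, 0.71, 0.89, 0.83 and 0.94 in the same order. Without untreated replicates 1 and 2 the r values became 0.093, 0.61, 0.69, 0.32 and 0.35. Without untreated replicate 2 alone they were 0.21, 0.51, 0.70, 0.47 and 0.63. Each r with HXT4 was thus lower without those pairs, most of all for FIG1.

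**Figure D3:**
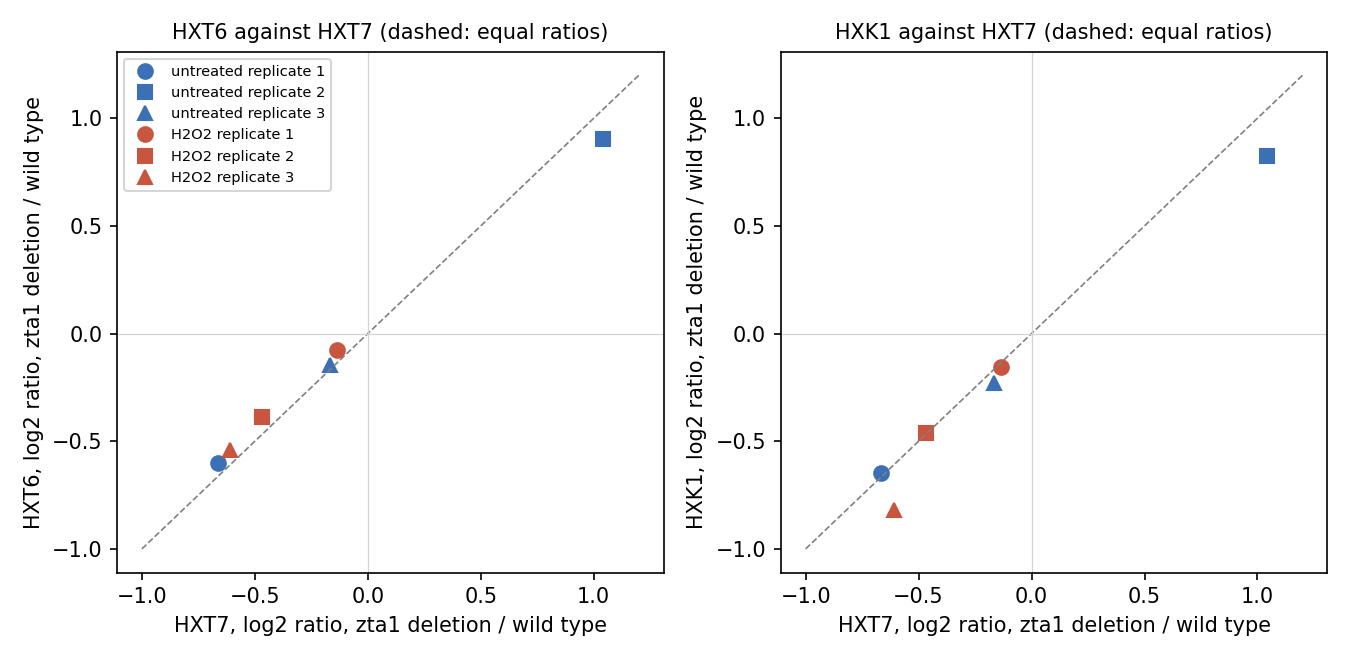
Log2 ratio of HXT6 (left) and of HXK1 (right) on the vertical axis against HXT7 on the horizontal axis, 1 point per pair of cultures, with a dashed line where the ratios are equal. HXT6 stays within 0.14 of HXT7 in every pair, and HXK1 reaches 0.82 in untreated replicate 2 and -0.82 in H2O2 replicate 3.

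The other 10 measured genes of the hexose transporter family, HXT8 to HXT11, HXT13 to HXT17 and the galactose carrier GAL2, ranged from -0.33 to 0.19 over all pairs. In untreated replicate 2 their median was 0.032, where that of the set was 0.49. Their largest mean ratios over all pairs were -0.062 for HXT8, -0.058 for HXT13, 0.042 for HXT9 and 0.042 for HXT17. None of the 10 passed in limma's tests in either treatment, for the difference or for the mean of both, the smallest adjusted p being 0.551.

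The proteins that carry the sensors' signal were measured with 9 genes, namely STD1, the repressor RGT1, the casein kinases YCK1 and YCK2, the ubiquitin ligase genes GRR1, SKP1 and CDC53, and the corepressors CYC8 and TUP1. Their ratios stayed between -0.12 and 0.16, with RGT1 at -0.028 and GRR1 at 0.035 in untreated replicate 2. Glucose repression was represented by 15 genes of the kinase Snf1, its regulators and the Mig repressors, between -0.23 and 0.23. GLC7, the catalytic subunit of a phosphatase, had a mean of -0.090 over the 6 pairs, REG1, its regulator, 0.068, SNF1 -0.062 and MIG3 0.049. No gene of these lists passed in any of the 4 comparisons (limma, smallest adjusted p = 0.469).

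Of the 4 genes for glucose phosphorylation, HXK1 stood out from the rest. In untreated replicate 2 its ratio was 0.82, against 0.14 for HXK2, the main hexokinase during growth on glucose, 0.077 for glucokinase GLK1 and 0.045 for EMI2. In H2O2 replicate 3 GLK1 had -0.51 and EMI2 -0.35. HXK2 depended on the dye, with a mean over both treatments of -0.68 from the Cy5 arrays and 0.66 from the Cy3 arrays. None of the 4 passed in limma's tests (smallest adjusted p = 0.469). Without untreated replicate 2 the mean of both treatments was -0.46 for HXK1 (limma adjusted p = 0.0684) and -0.18 for EMI2 (0.149). It was then -0.17 for GLK1 (0.421) and -0.046 for HXK2 (0.639). The pair left out there was the only pair with HXK1 above 0. With all pairs the mean of HXK1 was -0.25 (limma adjusted p = 0.636). It was -0.091 without untreated replicate 1 (0.881) and -0.20 without untreated replicate 3 (0.805).

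Genes repressed by glucose in other pathways, such as SUC2, ADH2 and the gluconeogenic FBP1, had a median near 0 in each pair. The median of 15 such genes was -0.0010 in untreated replicate 2 and between -0.025 and 0.010 in the other pairs. The activator ADR1 had the highest single ratio, 0.36 in untreated replicate 2, and GAL10 the lowest, -0.34 in H2O2 replicate 2. Of 13 stress and slow growth genes the median was 0.0097 in untreated replicate 2, -0.14 in untreated replicate 1 and -0.22 in H2O2 replicate 3. GPH1 had 0.39, -0.53 and -0.53 in these pairs, TSL1, of trehalose synthesis, 0.090, -0.25 and -0.54, and HSP12, a membrane-protecting stress protein, -0.24, -0.53 and -0.29. No gene of either list passed in limma's tests (smallest adjusted p = 0.0778, HSP12 for the mean of both treatments, -0.27). HSP12 passed as lower for that mean without untreated replicate 2 (-0.29, limma adjusted p = 0.0288) and in the fit of all 12 arrays (-0.27, 0.0291). It did not pass without untreated replicate 1 (limma adjusted p = 0.130) or replicate 3 (0.189). Nor did it pass after quantile normalisation (0.126) or with the replicate block (0.298).

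In a list of 7 other carriers 1 gene passed as lower for the mean of both treatments, beside 16 of all genes (0.286%) in either direction. GEX2, which exchanges glutathione for protons and carries no sugar, had a mean of -0.21 ± 0.075 over both treatments (SD, n = 6 pairs, limma adjusted p = 0.0184) and was below 0 in 6 of 6 pairs. It did not pass in either treatment alone (adjusted p = 0.0916 untreated and 0.423 under H2O2). The call ended without untreated replicate 3 (-0.22, limma adjusted p = 0.0599) and without H2O2 replicate 1 (-0.21, 0.0824), replicate 2 (-0.21, 0.106) or replicate 3 (-0.20, 0.132). It also ended after quantile normalisation (-0.24, 0.0978) and with the replicate block (-0.21, 0.0818). Its near copy GEX1 had a mean of -0.15 (limma adjusted p = 0.0629) and was below 0 in 6 of 6 pairs. GEX1 passed without untreated replicate 2 (-0.16, limma adjusted p = 0.0288), with robust eBayes (0.0425) and in the fit of all 12 arrays (0.0209). It did not pass without untreated replicate 1 (limma adjusted p = 0.193) or replicate 3 (0.282), or with the replicate block (0.280).

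Markers of mating type were set beside the carriers because the wild type is an alpha strain. All 5 alpha-cell genes were above 0 in untreated replicate 2, with a median of 0.14 and up to 0.49 for SAG1, the alpha-agglutinin. In the other 5 pairs their median lay between -0.16 and 0.024. The 7 a-cell genes had a median of -0.027 in untreated replicate 2 and ranged from -0.31 to 0.15 over all pairs. No marker passed in limma's tests (smallest adjusted p = 0.531). The part of mating type markers in the ratios of the carriers was not tested.

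**Figure D4:**
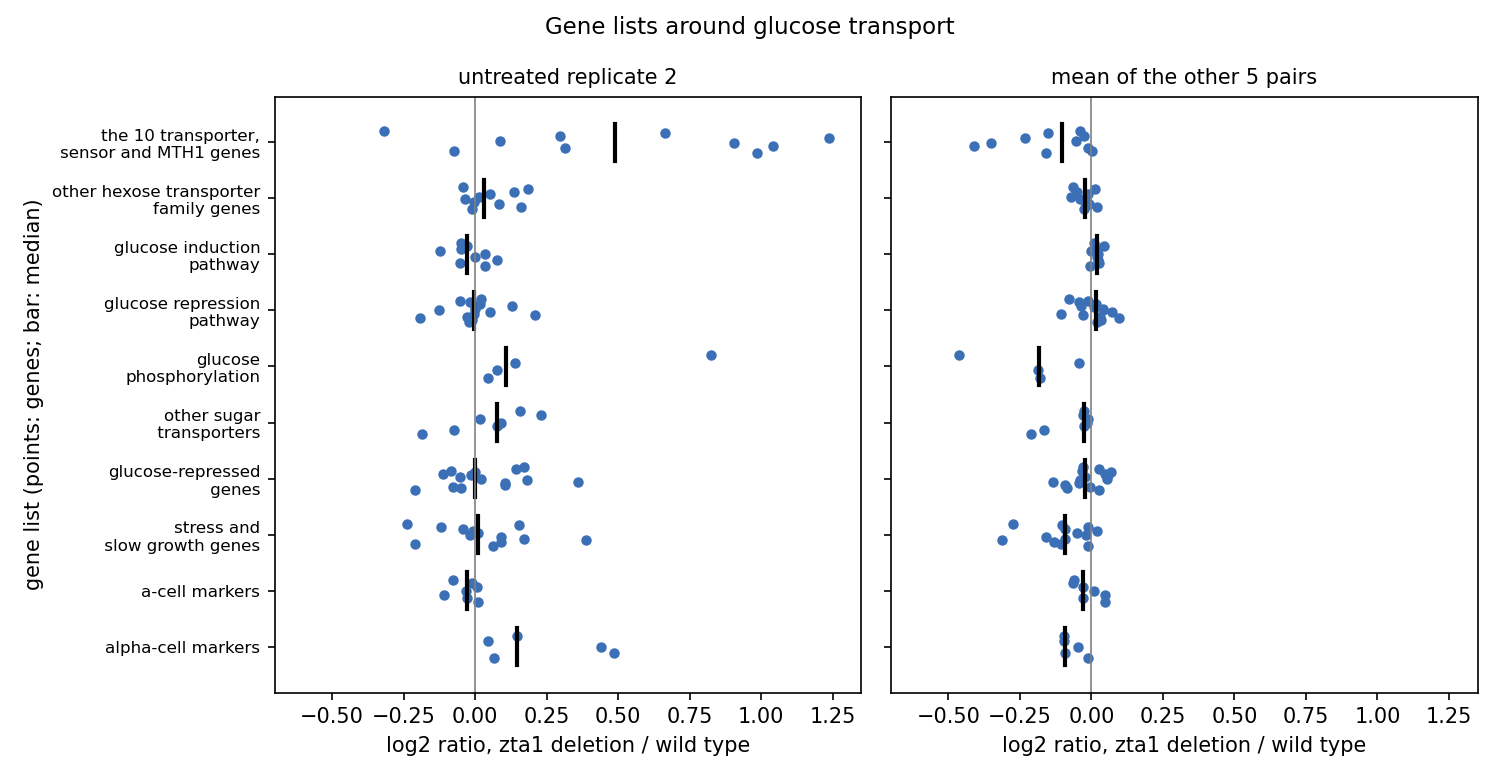
Log2 ratio of ∆zta1 to wild type (horizontal axis) for each gene of 10 lists (vertical axis), in untreated replicate 2 (left) and as the mean of the other 5 pairs (right), with a black bar at the median of a list. The set reaches from -0.32 to 1.24 with a median of 0.49 on the left and has a median of -0.10 on the right, and HXK1 at 0.82 is the one other point above 0.5.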

How the data were processed

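The deposited values are log2 ratios of 6256 probes on 12 arrays, without intensities or flags. How the authors corrected the background and normalised the arrays, and the scale and direction, are not given in the sources used here. The tool limma is the only program named, per the submitters' processing notes. Values were read as log2 and as ∆zta1 over wild type on every array, from the titles and from ZTA1. Column medians were between -0.017 and 0.017. Signal over background is unknown. Precision rests on 3 pairs of cultures per treatment, each the mean of 2 arrays. In either treatment 1 description of replicate 3 says replicate 2, and titles were followed.

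In the platform annotation 5620 probes had 1 gene, none had several, and 636 were unnamed. Symbols were updated through gene identifiers in RefSeq (R64, 5594 of 5594 matched). Probes of a gene (25 genes) and the 2 arrays of a pair were averaged. limma 3.58.1 (R 4.3.3, lmFit and eBayes, 4 residual degrees of freedom) was fitted to 6 pair means, with 4 two-sided comparisons adjusted by Benjamini-Hochberg over all genes at 0.05. The fit was tried on simulated data with independent normal noise, of the same SD in all 6 pairs for a gene. The wider spread of untreated replicate 2 was not simulated. The labels call the pairs biological replicates without saying how the cultures were kept apart. Alternatives covered centring, scaling, quantile normalisation, each dye alone, all arrays in 1 fit, robust eBayes, single probes, each treatment alone, a replicate block and leaving out pairs.

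The 10 genes and the other lists were chosen with earlier results of these data known. Named from each list were genes that passed and up to 4 with the largest mean ratio, and for the 2 genes of widest range the 5 most correlated genes. Neighbours and single array readings were chosen after their values were seen. In all, 10 lists were described without a set test.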

Additional observations from a re-analysis of the deposited data

How the results depend on the processing

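Over 17 alternative settings, no gene of the set passed in any comparison except with 1 dye orientation alone. With the Cy5 arrays alone, 1 gene of the set passed in untreated cells (RGT2) and 2 for the mean of both treatments (RGT2 and HXT1), and the median of the set under H2O2 was -0.15 in place of -0.084. With the Cy3 arrays alone 1 passed under H2O2 and 1 for the mean of both (RGT2 each time). Among the other genes named, the direction for the mean of both treatments turned with a call for REG1 (-0.11) and GRR1 (-0.087) on the Cy5 arrays alone and for HXK2 (0.66) on the Cy3 arrays alone. In those fits a dye effect does not cancel, by construction. Over all genes the Cy5 arrays alone gave 906 calls in untreated cells, 929 under H2O2 and 2063 for the mean, and the Cy3 arrays alone 562, 420 and 1477. A single fit of the 12 arrays, with dye as a term and pair as random block, gave 30 for the mean of both treatments in place of 16. Leaving out single pairs gave 9 to 12 genes in untreated cells, 6 to 13 under H2O2, 11 to 22 for the mean and 0 to 3 for the difference, none of them from the set. The low counts under H2O2 were 7 without H2O2 replicate 1 and 6 without H2O2 replicate 3, and 3 for the difference came without untreated replicate 2. The cause of these shifts was not tested. The median of the set in untreated cells ranged from -0.15 (without untreated replicate 2) to 0.23 (without untreated replicate 1), and was -0.0077 after quantile normalisation. Same-numbered pairs of the 2 treatments are not stated to share a culture or day. Deviations of same-numbered pairs from their treatment mean correlated at -0.014, 0.031 and -0.27 across genes. For pairs with different numbers the correlations lay between -0.14 and 0.26. Deviations from a shared mean constrain each other, so these values cannot decide whether the numbers pair the treatments. With the number as a block, 10 genes passed in untreated cells, 10 under H2O2, 13 for the mean and 0 for the difference, none from the set.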
